A study of Mus musculus with 7 samples.

Results

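The 10 genes described here mark primitive and definitive endoderm, and their RNA was measured in mouse embryonic stem cells after knockdown of Mettl3. The members were Gata4, Gata6, Sox17, Sox7, Foxa2, Dab2, Lama1, Col4a1, Cubn and Pdgfra, and they were found by an exact match of the array platform's gene symbol. They are 10 of the 16353 genes that had a value, and 350 probe sets carried one of their symbols. The cells were of the J-1 line. All samples, controls included, had been infected with lentivirus and grown in full medium. Hairpin 1 against Mettl3 was delivered to 2 samples, hairpin 2 against Mettl3 to 2 others, and a hairpin against luciferase, a gene that mouse cells lack, to 3 control samples. Mettl3 encodes the catalytic subunit of the enzyme that writes N6-methyladenosine into RNA. An exon array was run for each sample, and on it a gene is read by many probe sets of its own exons.

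Primitive endoderm is the extraembryonic layer that forms beside the pluripotent epiblast in the blastocyst, and definitive endoderm is the later germ layer of the gut. In the mouse, GATA and SOX transcription factors set up the primitive endoderm programme, and its cells then secrete the laminins and collagens of a basement membrane and take up maternal nutrients by receptor-mediated endocytosis. Undifferentiated embryonic stem cells keep most of this programme low, although a minority of cells in culture can express parts of it.

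Promoter windows of 3 members are shown because the results turn on these genes: Cubn fell in the cells with less Mettl3, Pdgfra had the next lowest difference, and Dab2, an adaptor that acts in the endocytic route that Cubn serves, had the largest difference between the hairpins. The sequences are from RefSeq, build GRCm38.p6, each 300 bases long and written in the direction of transcription, and 5 of the 10 members had an entry (8 windows). The Cubn window is chr2:13491827-13492126 on the minus strand, the Pdgfra window is chr5:75152001-75152300 on the plus strand, and the Dab2 window, from the first of the 2 start sites listed, is chr15:6299539-6299838 on the plus strand. Capitals mark letters of 4 motif classes, each searched on both strands: GATA sites (the word GATA after A or T and before A or G), SOX sites (the word ACAAT or the longer word ACAAAG), forkhead sites (TGTTT before AC or before GC) and the core of an HNF1 site (AATNATT).
Cubn: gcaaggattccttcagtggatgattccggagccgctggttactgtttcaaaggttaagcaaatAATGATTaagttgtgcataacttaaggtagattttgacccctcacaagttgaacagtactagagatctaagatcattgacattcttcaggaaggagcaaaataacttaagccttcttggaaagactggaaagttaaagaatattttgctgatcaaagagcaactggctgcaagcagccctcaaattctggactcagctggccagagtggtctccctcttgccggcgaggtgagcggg
Pdgfra: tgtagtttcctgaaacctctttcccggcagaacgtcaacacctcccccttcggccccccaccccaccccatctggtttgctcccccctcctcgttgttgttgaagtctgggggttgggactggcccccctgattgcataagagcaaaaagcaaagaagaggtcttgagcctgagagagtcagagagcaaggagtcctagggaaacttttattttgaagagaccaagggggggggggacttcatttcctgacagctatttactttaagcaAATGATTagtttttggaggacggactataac
Dab2: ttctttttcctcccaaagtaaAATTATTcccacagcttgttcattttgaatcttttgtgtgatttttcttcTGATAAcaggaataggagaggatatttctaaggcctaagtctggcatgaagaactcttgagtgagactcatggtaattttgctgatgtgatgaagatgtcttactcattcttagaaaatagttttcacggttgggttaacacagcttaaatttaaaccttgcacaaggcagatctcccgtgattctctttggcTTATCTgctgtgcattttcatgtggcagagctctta
The capitals in Cubn and in Pdgfra are 1 HNF1 core each, at base -187 from the start site in Cubn and at base 19 in Pdgfra. Those in Dab2 are 1 HNF1 core and 2 GATA sites, and no marked letters belong to more than 1 motif. The window of the other Dab2 start site, not shown, held no match to any of these motif classes. Of all 32851 promoter windows of this length, 7.1% held an HNF1 core, 29.8% a GATA site, 42.9% a SOX site and 8.5% a forkhead site. Such matches describe letters, not binding. The windows of Cubn and Pdgfra held no match to the GATA, SOX or forkhead words, which says only that these letters are not in these windows.

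The 7 arrays had nearly equal medians over all probe sets (6.03 to 6.07 on the log2 scale). Mettl3 had gene values of 8.97 and 8.67 with hairpin 1 and 8.71 and 8.66 with hairpin 2, against 10.38, 10.46 and 10.14 with luciferase, so each knockdown array lay below each control array. On the leading principal component, which held 41% of the variance, the knockdown arrays scored 7.26 to 16.4 and the luciferase arrays -17.7 to -13.7. On the next component (21.4%) the hairpin 1 arrays scored 1.1 and -17.8 and the hairpin 2 arrays 4.31 and 10.1, against 1.21, 11.5 and -10.4 for the luciferase arrays, so hairpin 1 replicate 2 lay farthest out. The cells carried the markers of embryonic stem cells: 10 of 10 were measured, at gene values of 10.15 to 13.38, and none of the 10 passed the test in any comparison. Whether a group's samples came from separate cultures is not stated in the labels. The p-values therefore cover the spread among these samples alone, and part of it may be technical.

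The comparison of both Mettl3 hairpins with luciferase asked how the endoderm genes stood in cells with less Mettl3 RNA. Of the 10 members 1 fell, Cubn, and none rose. Cubn encodes cubilin, the multiligand receptor with which visceral endoderm and kidney tubule cells take up vitamin carriers and other proteins. A gene value is the median log2 value of a gene's probe sets that were brighter than the median of the array. Apart from Lama1 (10.09), the members had luciferase means of 6.55 to 7.65, under the median gene value of every array (8.17 to 8.3). Endothelial markers had 6.26 to 8.12 and trophectoderm markers 6.39 to 8.88. How far such low levels limit the differences was not tested, so a gene that did not pass is not shown to be unchanged. The difference of Cubn was -0.76 ± 0.076 (SE; n = 4 knockdown and 3 luciferase arrays), a 1.7-fold lower level, with a limma adjusted p of 0.000597. Over all genes tested, 7.9% were called at an adjusted p below 0.05, 2.37% as lower and 5.53% as higher. So 1 of 10 members called is near that background. Members had differences of -0.76 to 0.18 with a median of -0.07, beside a median of 0.00 over all 16353 genes. The difference was negative for 9 of 10 members and for 8160 of all genes. In bulk RNA, fewer cells of a type and less RNA per cell cannot be told apart.

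**Figure D1:**
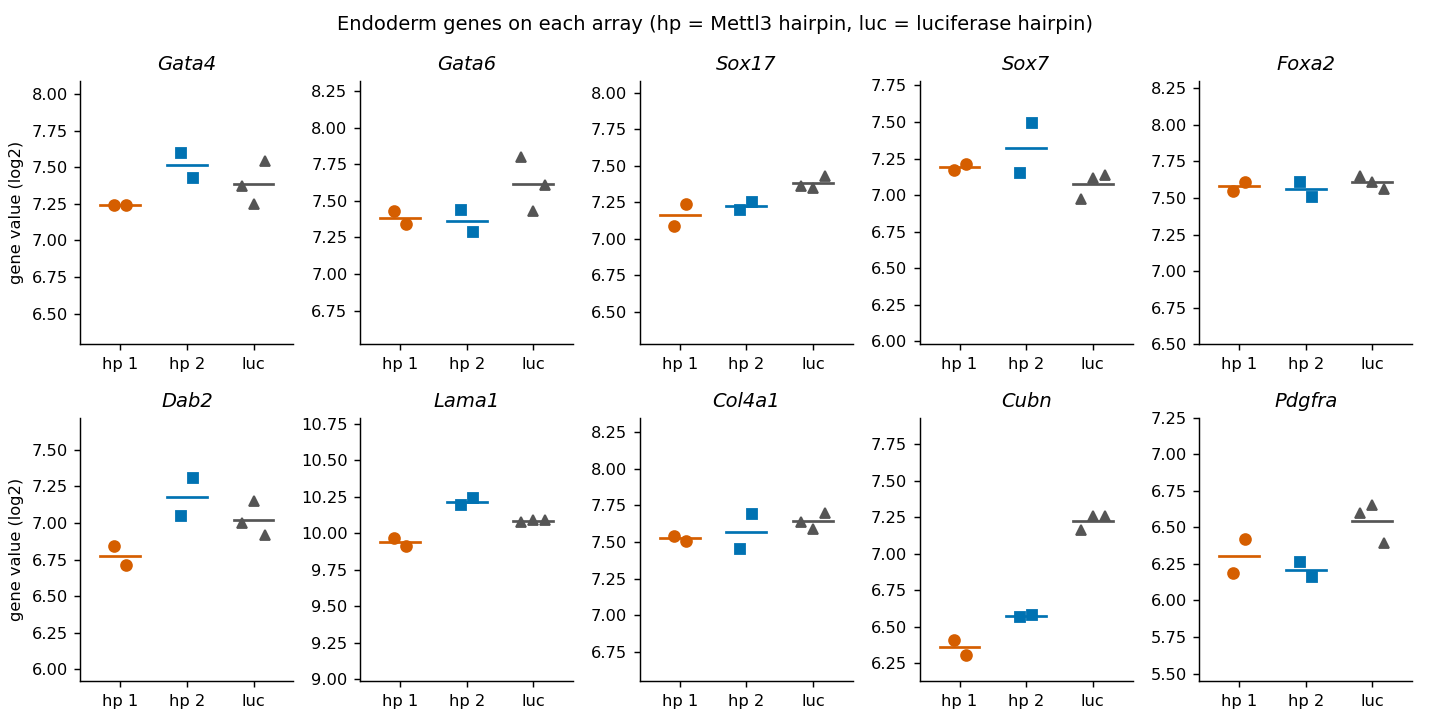
Gene values (log2, vertical axes, each spanning the same number of log2 units) of the 10 members on the hairpin 1, hairpin 2 and luciferase arrays. Points are arrays and lines are group means. Cubn sits between 6.31 and 6.58 on the 4 knockdown arrays, below the 3 luciferase arrays at 7.16 to 7.26, while most other members overlap.

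The GATA factors are zinc finger transcription factors, and in the mouse Gata6 is required for primitive endoderm to form, with Gata4 acting in the same cells. Gata6, on chromosome 18, had values of 7.43 and 7.34 with hairpin 1 and 7.44 and 7.29 with hairpin 2, against 7.80, 7.43 and 7.61 with luciferase. The groups overlapped, since an array of each hairpin reached the level of luciferase replicate 2. Its difference was -0.24 (95% interval -0.46 to -0.02, limma adjusted p = 0.174) and did not pass. Of its 17 probe sets in use, 16 were lower in the mean of the knockdown arrays, which was so for 45.9% of all probe sets in use. In 4 of the 17 all knockdown arrays lay below all luciferase arrays, against 5.94% of all probe sets in use. When the probe sets were averaged with a mean in place of the median, Gata6 was at -0.26 and passed (limma adjusted p = 0.0423). That was the 1 pass among 17 alternatives. With the mean 2840 of all 16353 genes were called, against 1292 with the median. Without luciferase replicate 1 Gata6 was at -0.15 (limma adjusted p = 0.48).

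Gata4, on chromosome 14, had 7.24 on both hairpin 1 arrays and 7.60 and 7.43 on the hairpin 2 arrays, against 7.37, 7.25 and 7.54 with luciferase. The hairpin 1 values were just under the luciferase arrays and the hairpin 2 values lay among or above them. The difference for both hairpins was -0.01 (95% interval -0.22 to 0.20, limma adjusted p = 0.965). Of its 12 probe sets in use, 7 were lower and 5 higher in the knockdown arrays.

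Sox17 and Sox7 are related HMG box factors, and Sox17 acts in primitive, definitive and vascular lineages. Sox17, on chromosome 1, had 7.09 and 7.24 with hairpin 1 and 7.20 and 7.25 with hairpin 2, against 7.36, 7.35 and 7.43 with luciferase. All 4 knockdown arrays lay below the 3 luciferase arrays, as they did for 8.4% of all genes. The difference of -0.19 (95% interval -0.36 to -0.01) did not pass (limma adjusted p = 0.183). It rested on 6 of 17 probe sets, the others being too dim, and with all 17 it was -0.03 (limma adjusted p = 0.946). Among 16 alternatives it passed in 1, the mean of probe sets, at -0.22 (limma adjusted p = 0.0322). In that alternative 2840 of all 16353 genes were called, against 1292 with the median. Sox7, on chromosome 14, had 7.17 and 7.21 with hairpin 1 and 7.15 and 7.49 with hairpin 2, against 6.97, 7.12 and 7.14 with luciferase. Here all 4 knockdown arrays lay above the luciferase arrays, as for 13.4% of all genes, but hairpin 2 replicate 1 and luciferase replicate 3 nearly met. Its difference of 0.18 (95% interval -0.04 to 0.40, limma adjusted p = 0.3) was the one positive value among the members and did not pass. Its probe sets disagreed with the gene value: 5 of the 8 in use were lower in the knockdown arrays, with a median difference of -0.08 (range -0.20 to 0.32).

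Foxa2 encodes a forkhead pioneer factor of definitive endoderm, also found in visceral endoderm. This gene, on chromosome 2, had 7.55 and 7.61 with hairpin 1 and 7.61 and 7.51 with hairpin 2, against 7.65, 7.61 and 7.56 with luciferase. The groups overlapped, and the difference was -0.03 (95% interval -0.20 to 0.13, limma adjusted p = 0.822). Of 8 probe sets in use, 4 were lower and 4 higher in the knockdown arrays.

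Lama1 and Col4a1 encode matrix chains, laminin alpha 1 and collagen IV alpha 1, which embryonic endoderm lays down in large amounts. Lama1, on chromosome 17, was above the brightness filter in all 78 of its probe sets. Its values were 9.97 and 9.91 with hairpin 1 and 10.19 and 10.24 with hairpin 2, against 10.08, 10.09 and 10.09 with luciferase. The luciferase arrays lay very close to each other, with both hairpin 1 arrays below them and both hairpin 2 arrays above, so the mean of both hairpins was at -0.01 (95% interval -0.17 to 0.15, limma adjusted p = 0.955).

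Col4a1, on chromosome 8, had 7.54 and 7.51 with hairpin 1 and 7.45 and 7.69 with hairpin 2, against 7.64, 7.59 and 7.70 with luciferase. Of the 4 knockdown arrays 1 lay within the luciferase range and 3 below it. Of 59 probe sets in use, 37 were lower in the knockdown arrays and 22 higher. The difference was -0.10 (95% interval -0.29 to 0.09, limma adjusted p = 0.513). Its partner chain gene Col4a2 is transcribed in the opposite direction from a start site 21 bases away in the RefSeq table, and 78 bases of their promoter windows are shared. Col4a2 was at -0.14 (95% interval -0.36 to 0.08, limma adjusted p = 0.412), so neither of this divergent pair passed.

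Dab2 encodes a clathrin adaptor that primitive endoderm needs for endocytosis and epithelial order. This gene, on chromosome 15, had 6.84 and 6.71 with hairpin 1 and 7.05 and 7.31 with hairpin 2, against 7.0, 7.15 and 6.92 with luciferase. Both hairpin 1 arrays lay below the luciferase arrays and the hairpin 2 arrays lay within or above them. The difference of the mean of both hairpins was -0.05 (95% interval -0.26 to 0.17, limma adjusted p = 0.798).

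Pdgfra encodes the receptor for platelet-derived growth factors and is an early surface marker of primitive endoderm, but fibroblasts and mesoderm express it too. This gene, on chromosome 5, had 6.19 and 6.42 with hairpin 1 and 6.26 and 6.16 with hairpin 2, against 6.60, 6.65 and 6.39 with luciferase. Hairpin 1 replicate 2 and luciferase replicate 3 overlapped, and the other arrays were apart. The difference of -0.29 (95% interval -0.51 to -0.08) did not pass (limma adjusted p = 0.0971). With the mean of probe sets in place of the median the difference was -0.11 (limma adjusted p = 0.238). Only 9 of 33 Pdgfra probe sets were bright enough for use, and 7 of these 9 were lower in the knockdown arrays.

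Beside Pdgfra, Col4a1 and Sox17 stand the markers of other cells that express them. Of 10 fibroblast markers 8 were measured, and their mean gene value per array was 7.58 to 7.64 with hairpin 1 and 7.29 to 7.34 with hairpin 2, against 7.31 to 7.35 with luciferase. In the mean of both hairpins the difference was positive for 2 of the 8 and negative for 6. The contractile genes Acta2 (1.07, limma adjusted p = 0.000482) and Tagln (0.78, limma adjusted p = 0.000865) rose in the mean of both hairpins, while the collagen genes Col1a1 (-0.11, limma adjusted p = 0.428), Col1a2 (-0.18, limma adjusted p = 0.195) and Col3a1 (-0.07, limma adjusted p = 0.628) did not pass. Tagln rose by 1.19 with hairpin 1 (limma adjusted p = 0.000361) and was at 0.36 with hairpin 2 (limma adjusted p = 0.0851), and it differed between the hairpins by 0.83 (limma adjusted p = 0.0438). Acta2 rose with each hairpin, by 1.38 with hairpin 1 (limma adjusted p = 0.000512) and 0.77 with hairpin 2 (limma adjusted p = 0.0106). For both hairpins Thy1 (-0.14, limma adjusted p = 0.398), Postn (-0.15, limma adjusted p = 0.32) and Dcn (-0.13, limma adjusted p = 0.523) did not pass. Dcn was at 0.24 with hairpin 1 (limma adjusted p = 0.336) and at -0.49 with hairpin 2 (limma adjusted p = 0.08). The mean of 5 endothelial markers was 6.82 to 6.88 with hairpin 1 and 6.94 to 6.98 with hairpin 2, against 6.93 to 7.06 with luciferase, and 1 of the 5 fell, the VEGF receptor gene Kdr (-0.44, limma adjusted p = 0.0323). The mean of 5 trophectoderm markers was 7.32 to 7.33 with hairpin 1 and 7.37 to 7.45 with hairpin 2, against 7.32 to 7.42 with luciferase, and none of them passed. Their part in the values of the endoderm genes was not tested.

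**Figure D2:**
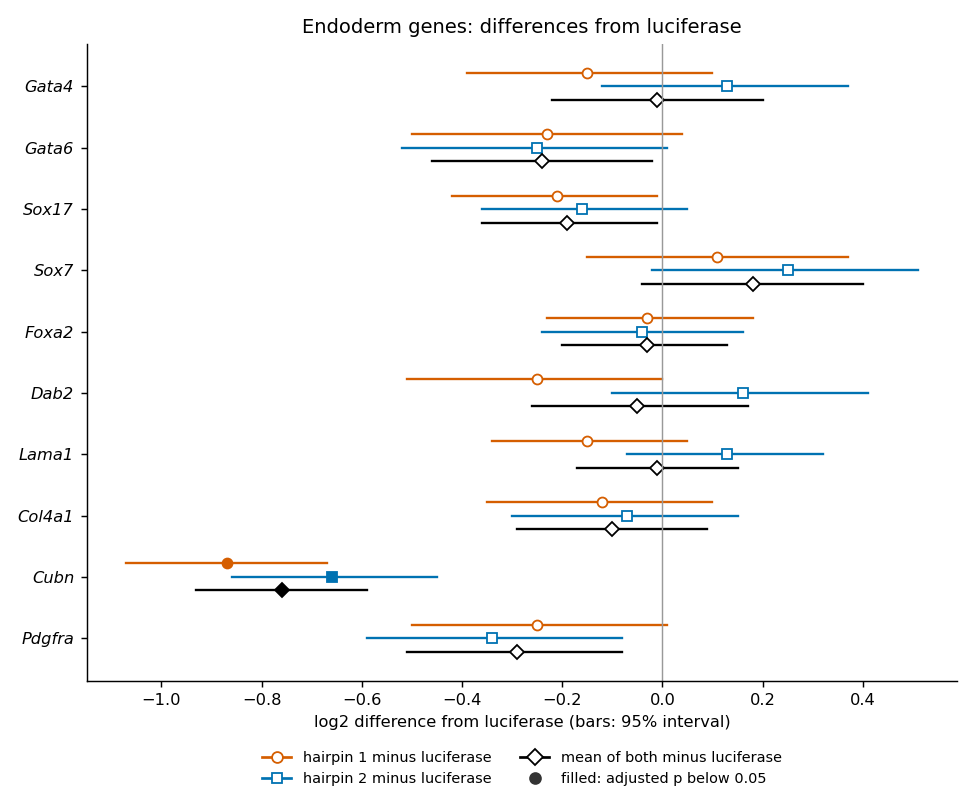
Log2 differences from luciferase (horizontal axis) for each member with hairpin 1, hairpin 2 and the mean of both, with 95% intervals from the fit over all genes; filled symbols passed an adjusted p of 0.05. Cubn alone has filled symbols, at -0.87, -0.66 and -0.76.

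Cubn fell with each hairpin. Its values were 6.41 and 6.31 with hairpin 1 and 6.57 and 6.58 with hairpin 2, against 7.16, 7.26 and 7.26 with luciferase. Arrays of a group lay close together and every knockdown array was below every luciferase array. With hairpin 1 the difference was -0.87 ± 0.0908 (SE, 1.83-fold, limma adjusted p = 0.00113), and with hairpin 2 it was -0.66 ± 0.0908 (SE, 1.58-fold, limma adjusted p = 0.00605). These comparisons share the 3 luciferase arrays. The call with hairpin 2 was lost without either of its arrays, at -0.65 (limma adjusted p = 0.0572) without replicate 1 and -0.66 (limma adjusted p = 0.0814) without replicate 2. Each of these fits has 1 hairpin 2 array, which is assumed to vary like the other groups, and the size of the difference was nearly the same. In the hairpin 1 comparison 5.89% of all genes were called, 1.93% as lower and 3.97% as higher. In that of hairpin 2 the share was 3.79%, with 1.08% lower and 2.71% higher. Cubn was the 1 member called in each. Among all 16353 genes, Cubn ranked 31 from the lowest difference in the mean of both hairpins.

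Most probe sets of Cubn, which lies on chromosome 2, were lower with the hairpins, by unequal amounts (-2.30 to 0.37). Of its 77 probe sets, 75 were lower in the mean of the knockdown arrays, against 47.7% of all probe sets with a symbol. In 41 of the 77 all 4 knockdown arrays lay below all 3 luciferase arrays, against 5.43% of all probe sets. The gene value used 29 of them, with mean levels of 6.11 to 7.88, and the other 48 were dimmer. The median difference was -0.68 over the probe sets in use and -0.78 over the dimmer ones. With all 77 in the gene value, Cubn was at -0.80 (limma adjusted p = 0.00641). Median differences were -0.71, -0.80 and -0.72 over the dimmest, middle and brightest probe sets when these were split into 3 groups by luciferase level. With a filter at the 75th percentile of all probe sets, fewer than 3 Cubn probe sets were left and the gene was not tested.

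**Figure D3:**
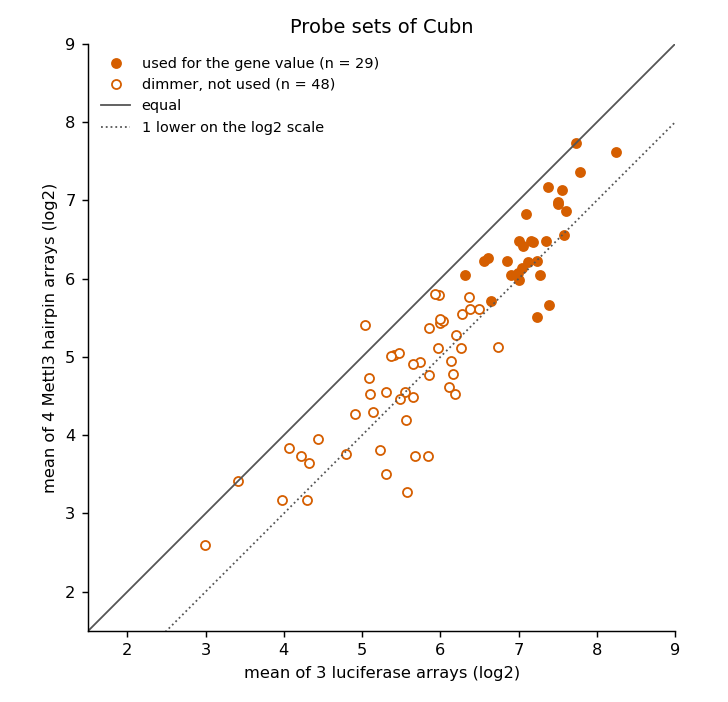
Mean of the 4 Mettl3 hairpin arrays (vertical axis, log2) against the mean of the 3 luciferase arrays (horizontal axis, log2) for the 77 Cubn probe sets, filled for the 29 in use and open for the 48 dimmer ones. Of the 77, 75 lie below the line of equal values and 23 lie lower by 1 or more.

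Exon usage, the question whether probe sets of a gene change by unequal amounts, was called for Cubn and for no other member (limma diffSplice adjusted p = 0.000297; 4.97% of all genes were called). In this test 2 Cubn probe sets fell further than the rest of the gene. Probe set 4420785 had 6.49 and 5.28 with hairpin 1 and 5.01 and 5.87 with hairpin 2, against 7.16, 7.56 and 7.44 with luciferase. Probe set 4662635 had 5.46 and 5.09 with hairpin 1 and 5.73 and 5.74 with hairpin 2, against 7.04, 7.37 and 7.27 with luciferase. Their differences were -1.73 and -1.72, lower than the gene's other probe sets by 1.04 (limma diffSplice adjusted p = 0.00549) and 1.03 (limma diffSplice adjusted p = 0.00602). Both were below the brightness filter of 6.02 in the mean of the knockdown arrays (5.66 and 5.51) and above it in that of the luciferase arrays (7.39 and 7.23), so their mean over all arrays passed the filter through the luciferase level. At the other end, probe set 4709345 was at 7.73 in the mean of the knockdown arrays and 7.73 in that of the luciferase arrays. The exon usage call of Cubn was absent without luciferase replicate 2, with the replicate number as a block and without both hairpin 1 replicate 2 and luciferase replicate 3. Foxa2 (adjusted p = 0.0915) and Pdgfra (adjusted p = 0.0655) had the next smallest values in diffSplice, and Lama1, with 78 probe sets, had an adjusted p of 1. Positions of probe sets within genes were not used here.

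The 3 genes whose pattern over the 7 arrays was most like that of Cubn were Tac2, which encodes the precursor of neurokinin B, Ripply3, which encodes a transcriptional repressor, and Vsig2, which encodes a membrane protein with immunoglobulin domains. Likeness was the mean absolute difference of log2 values after each gene's luciferase mean had been subtracted. It was 0.0579 for Tac2, 0.0655 for Ripply3 and 0.0754 for Vsig2. Tac2 had 6.77 and 6.49 with hairpin 1 and 6.67 and 6.76 with hairpin 2, against 7.28, 7.37 and 7.41 with luciferase. The differences from luciferase were -0.68 for Tac2, -0.75 for Ripply3 and -0.84 for Vsig2. Because the genes were chosen by likeness to Cubn on these same arrays, differences near that of Cubn follow from the choice.

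The hairpins were then compared with each other, which leaves the luciferase arrays out of the difference. None of the 10 members passed, and 0.104% of all genes were called, 0.055% as higher with hairpin 1 and 0.0489% as lower. In limma 3 members had an unadjusted p below 0.05, as did 1435 of all 16353 genes. The 3 were Dab2 (-0.41, 95% interval -0.69 to -0.13, adjusted p = 0.38 in limma), Lama1 (-0.27, 95% interval -0.49 to -0.06, adjusted p = 0.421 in limma) and Gata4 (-0.27, 95% interval -0.54 to -0.00, adjusted p = 0.569 in limma), all lower with hairpin 1. For Lama1, 77 of 78 probe sets were higher with hairpin 2 than with hairpin 1. The same was so for 16 of 17 Dab2 probe sets in use and 6 of 12 of Gata4, and for 52.5% of all probe sets in use. Probe sets of a gene read the same arrays, so they are not replicates. Cubn differed between the hairpins by -0.21 (95% interval -0.43 to 0.01, adjusted p = 0.597 in limma), and Gata6 by 0.02 (95% interval -0.27 to 0.32, adjusted p = 0.98 in limma).

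**Figure D4:**
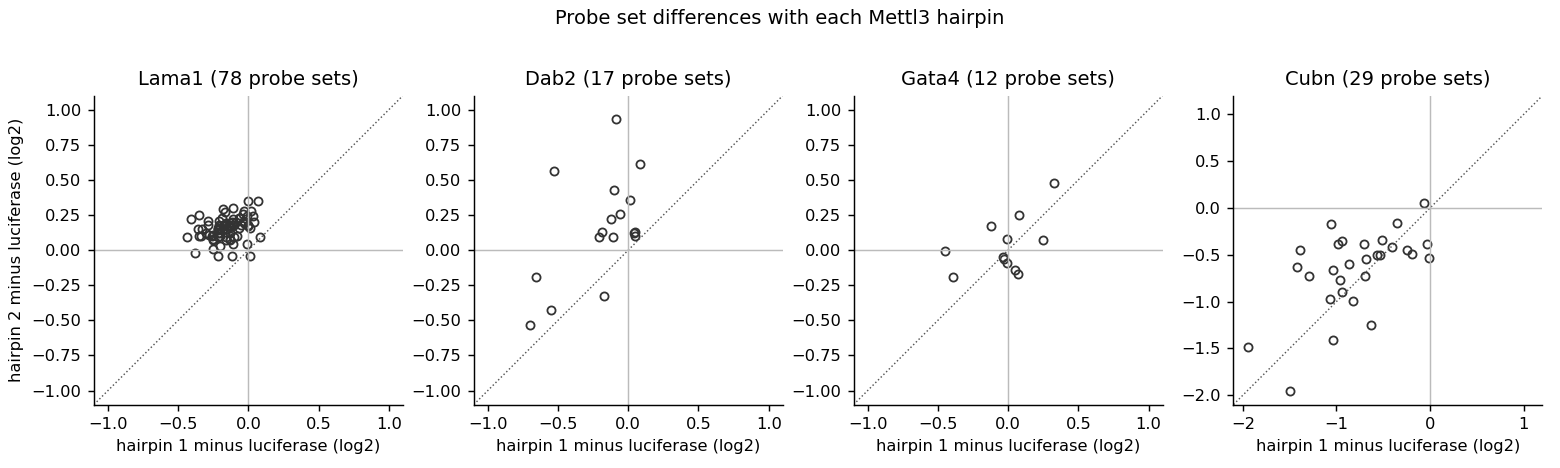
Log2 difference from luciferase with hairpin 2 (vertical axis) against that with hairpin 1 (horizontal axis) for the probe sets in use of Lama1, Dab2, Gata4 and Cubn; the dotted line marks equal differences and both axes share the same luciferase arrays. For Lama1 77 of 78 points lie above the dotted line, and for Cubn 28 of 29 are negative on both axes.

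Other genes of the lineage were taken from a list of 35, of which 33 had a value. In the mean of both hairpins 1 rose and 1 fell, and 31 did not pass, beside 7.9% of all genes called. Their median difference was -0.02. Foxa3, a forkhead factor gene of endoderm, fell: it had 7.27 and 7.63 with hairpin 1 and 7.36 and 7.19 with hairpin 2, against 7.98, 7.72 and 7.76 with luciferase. Its difference of -0.46 (limma adjusted p = 0.0326) rested on 5 probe sets and was -0.03 (limma adjusted p = 0.805) with their mean in place of the median. Pdgfc, a ligand gene of the Pdgfra receptor, rose: it had 10.49 and 10.63 with hairpin 1 and 10.68 and 10.73 with hairpin 2, against 10.28, 10.19 and 10.43 with luciferase. Its difference was 0.33 (limma adjusted p = 0.0438). The call of Foxa3 was lost in 11 of 16 alternative analyses, among them the omission of any single array but hairpin 1 replicate 2. That of Pdgfc was lost in 15 of 17, among them the omission of any single array but luciferase replicate 3.

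**Figure D5:**
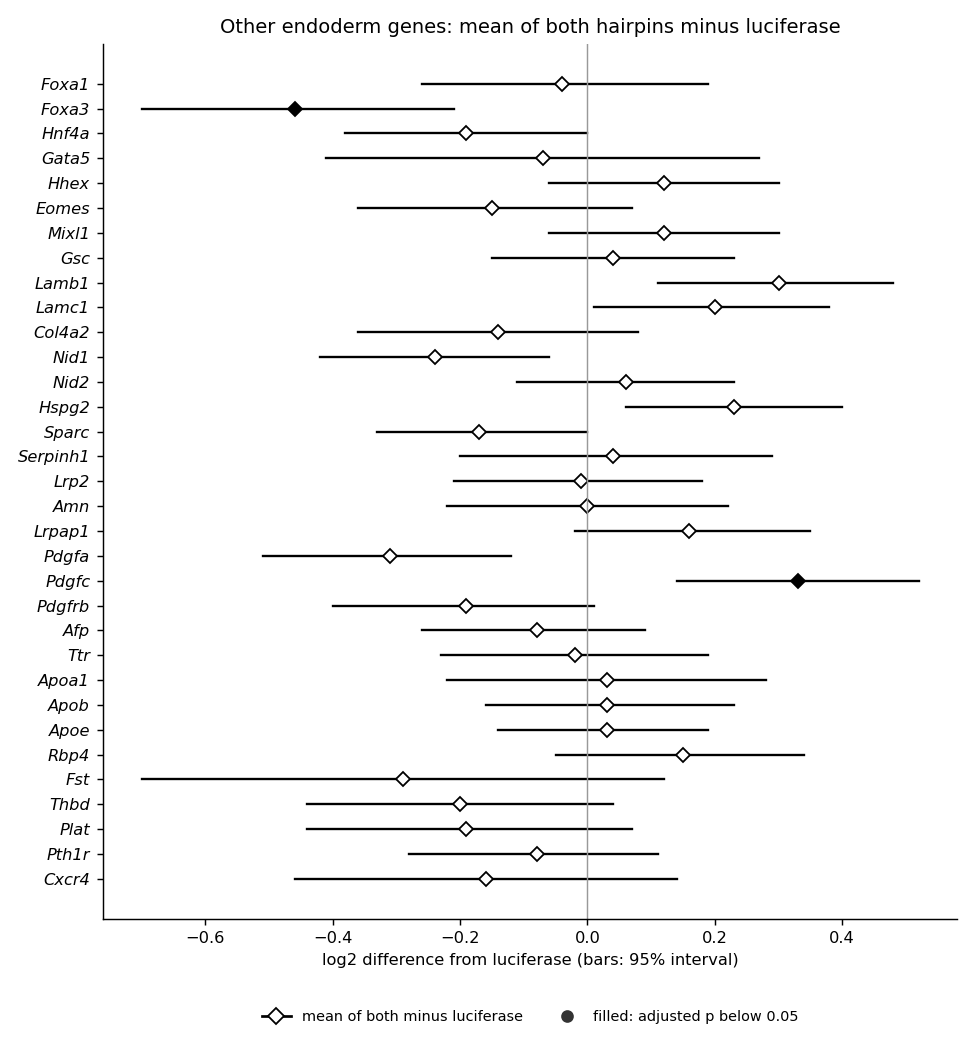
Log2 difference of the mean of both Mettl3 hairpins from luciferase (horizontal axis) for the 33 other endoderm genes, with 95% intervals; filled symbols passed an adjusted p of 0.05. Foxa3 at -0.46 and Pdgfc at 0.33 are filled, and the other 31 are open.

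Cubilin reaches the cell surface bound to amnionless and works with megalin, and none of 3 endocytic partner genes passed. The amnionless gene Amn had 7.70 and 7.87 with hairpin 1 and 7.87 and 7.80 with hairpin 2, against 7.91, 7.61 and 7.90 with luciferase. Its difference was 0.00 (95% interval -0.22 to 0.22, limma adjusted p = 0.992). The megalin gene Lrp2 had 8.94 and 8.78 with hairpin 1 and 8.58 and 8.80 with hairpin 2, against 8.79, 8.84 and 8.72 with luciferase. Its difference was -0.01 (95% interval -0.21 to 0.18, limma adjusted p = 0.949), so for both partners the groups overlapped. Lrpap1, the gene of a chaperone of megalin, was at 0.16 (limma adjusted p = 0.252). Among the PDGF genes, Pdgfa, the other ligand gene listed, was at -0.31 (limma adjusted p = 0.0599), with all 4 knockdown arrays (10.72 to 10.93) below the luciferase arrays (11.10 to 11.32). In the main analysis none of 8 basement membrane genes passed for the mean of both hairpins. The laminin chain gene Lamb1 had the largest difference, 0.30 (limma adjusted p = 0.0569). Pdgfa, Lamb1, Lamc1, Hspg2, Nid1 and Sparc were called with the mean of probe sets, where 2840 of 16353 genes were called. The same genes were called with median polish. Lamb1 had 9.85 and 9.74 with hairpin 1 and 9.70 and 9.91 with hairpin 2, against 9.51, 9.51 and 9.50 with luciferase, with no overlap. Nid1, which encodes the laminin-binding protein nidogen, fell with hairpin 1 (-0.43, limma adjusted p = 0.03) and was at -0.06 with hairpin 2 (limma adjusted p = 0.802); between the hairpins it differed by -0.38 (limma adjusted p = 0.322), and the call with hairpin 1 was lost in 12 of 18 alternatives, the omission of each single array among them. None of 7 measured secreted products, 3 parietal endoderm genes or the chemokine receptor gene Cxcr4 passed in the main analysis. Among the 8 measured transcription factor genes Foxa3 alone did.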

How the data were processed

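RNA of 7 samples was hybridised to 1 exon array each. The authors deposited log2 values for 1201338 probe sets. The submitters' processing notes name RMA and R 2.11.1; which package ran RMA is not stated there. Since RMA equalises the distributions of arrays, a change shared by most transcripts cannot show in these values. Scan batches were not analysed here.

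Symbols came from the platform's annotation (311384 probe sets with 1 symbol, 6385 with several, 883569 with none), and 45560 were updated through a RefSeq table of assembly GRCm38.p6. Probe sets with 1 symbol and a mean above 6.02, the median of all probe sets, were used: 229811 in all, 243 of them of members. On each array the median of a gene's used probe sets, at least 3 of them, gave the gene value, for 16353 genes. A linear model with 1 mean per group and 4 residual degrees of freedom was run in R 4.3.3 with lmFit and eBayes of limma 3.58.1, and p-values were adjusted by Benjamini-Hochberg over all genes. Exon usage was tested with diffSplice. Both were also run on simulated data, and the outcome is not given here. No pair of arrays looked like 1 sample deposited again (correlations of 0.9704 to 0.9797). With 2 or 3 arrays in a group the precision is limited by their number. 

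The members and gene lists were chosen with earlier results of these data known. Named are all members, Mettl3, the other endoderm genes that were called or had the 4 largest differences, and the 3 genes most like each called member (predicted genes, clones, Olfr, Vmn, Mir and Snor genes skipped). The markers, Col4a2, Amn, Lrp2, Lrpap1, Nid2, Afp and Cxcr4 were named after their values were seen. The alternatives were other filters, summaries, scalings and spread models, single groups, a replicate block and the omission of arrays.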

Additional observations from a re-analysis of the deposited data

Results flagged for a closer look

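For 5 of the members and other endoderm genes, every array of one hairpin lay on one side of the luciferase mean. Every array of the other hairpin lay on the opposite side. The difference between hairpins (hairpin 1 minus hairpin 2) was -0.27 for Gata4, -0.41 for Dab2, -0.27 for Lama1, -0.26 for the nidogen gene Nid2 and 0.31 for the alpha-fetoprotein gene Afp. In limma the adjusted p of these differences was 0.569, 0.38, 0.421, 0.479 and 0.412, so none passed. Such a split is not particular to endoderm genes. It was also seen for the embryonic stem cell marker Klf4 (-0.41, limma adjusted p = 0.263) and the fibroblast marker Dcn (0.73, limma adjusted p = 0.182). The share of all genes with such a split is not given here.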

How the results depend on the processing

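Cubn was called as lower for the mean of both hairpins in all 16 alternatives that tested it (-0.82 to -0.66, limma adjusted p from 5.95e-05 to 0.0126), in all 17 for hairpin 1 and in 15 of 17 for hairpin 2. Same-numbered samples of different groups did not deviate together (r of -0.262 to 0.0833 over 6 pairs), so numbers were not taken as pairs. The 2 arrays of a hairpin deviate from their mean by equal and opposite amounts, so the 6 values are not separate checks and pairing is not excluded. With the replicate block Cubn was at -0.75 (limma adjusted p = 0.00767). The stricter filter left too few Cubn probe sets, so 0 members were called for the mean, for hairpin 1 and for hairpin 2, and 0 for exon usage. For the mean, 3 members (Cubn, Gata6 and Sox17) were called with the mean of probe sets, a setting with 2840 of 16353 genes called. The members called were 2 (Cubn and Pdgfra) without hairpin 1 replicate 2 and luciferase replicate 3, an alternative added after seeing the data. Those arrays hold the highest hairpin value and the lowest luciferase value of Pdgfra, so leaving them out widens its difference by construction and its call supports nothing. Leaving out each array in turn gave 1 to 1 members for the mean, 0 to 1 for hairpin 2 and 0 to 1 other endoderm genes. The count of 2 other endoderm genes became 10 with the mean of probe sets, 9 with median polish and 6 with trend and robust spreads. Over all 16353 genes the calls under these settings were 2840, 2469 and 1609, against 1292 in the main analysis. Hspg2, Lamb1, Nid1 and Pdgfa were called under each of these settings, and Foxa3 and Pdgfc only with trend and robust spreads. The count stayed at 2 with the stricter filter, but the genes were Lamb1 and Pdgfa (1836 of 12271 genes called). With quantile normalization they were Foxa3 and Pdgfa. The count of other endoderm genes was 1 without both of those arrays. It was 0 with no filter, with at least 1 probe set or with the replicate block. Under these last settings 484 of 19993, 906 of 19939 and 540 of 16353 genes were called. The causes were not tested. Without luciferase replicate 2 the member called for exon usage was Pdgfra in place of Cubn. Exon usage was called for 2 members with no filter (Cubn and Pdgfra) and for 0 with the replicate block or without both of those arrays. Over all genes the count of 1292 ranged from 484 (no filter) to 2840 (mean of probe sets). Between hairpins 0 members were called under any alternative in limma, a crossed block of the hairpin numbers included (4 of all genes called). No called member changed sign. Dim probe sets limit Cubn, Sox17, Sox7 and Pdgfra, none of which could be tested under the stricter filter.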
